A study of Mus musculus with 13 samples.

Results

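Immunoglobulin genes encode the heavy, kappa and lambda chains of antibodies, and their RNA was counted in 13 libraries made from laser-captured spinal motoneurons of mice. The genes were chosen by symbol (variable segments named Ighv, Igkv or Iglv, and the heavy, kappa and lambda constant genes) and by a measured value, at least 10 counts in at least 1 library. That rule kept 176 of 361 candidate genes, out of 48709 genes counted. The 176 genes comprised 83 heavy, 79 kappa and 3 lambda variable segments, and 7 heavy, 1 kappa and 3 lambda constant genes. Ighv1-20, Ighv1-23, Ighv3-1 and Ighv8-10 lay just inside the limit with a highest count of 10, and Ighv1-34, Ighv1-38 and Ighv2-6 lay just outside it with a highest count of 9. Because the counts themselves chose the genes, that they were detected is a description and not a finding.

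Each developing B cell cuts and joins its DNA so that a single variable segment stands before the constant gene of each chain, and all daughters of that cell transcribe the same joined pair. A mixed B-cell population therefore spreads its counts over many variable segments, whereas a few expanded clones, or a few antibody-secreting plasma cells with their very high immunoglobulin RNA, put most counts on few segments. The constant gene of the heavy chain names the antibody class: Ighm and Ighd are used first, and class switching moves a cell to an Ighg, Igha or Ighe gene. Neurons carry these loci unrearranged.

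All mice carried the SOD1-G93A genotype, a mutant human SOD1 transgene that causes motoneuron disease, so no healthy control enters any comparison. The AAV-miR SOD1 group (n = 4, replicates 1 to 4) received, on postnatal day 2 and into the cerebral ventricles, an adeno-associated virus carrying an artificial microRNA against human SOD1 that the series' text says is expressed in astrocytes, with no promoter named. The AAV-miR ctrl group (n = 5, replicates 1, 3, 4, 5 and 6) received the control vector, and the Non-injected SOD1 mutant group (n = 4, replicates 2, 3, 5 and 6) consisted of littermates without injection. At 65 days of age, 500 motoneurons per mouse were pooled from stained sections of lumbar cord that had been frozen within the vertebrae, so each library is 1 mouse. The study asked how motoneurons change when the microRNA acts in astrocytes.

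Counts assigned to genes ranged from 13897189 to 37414222 per library, so that 3 counts, taken here as the smallest readable level, corresponded to 0.0802 to 0.216 counts per 1000000 gene counts (CPM). Column headers contradicted the labels in 2 tables: AAV-miR ctrl replicate 3 was headed as a SOD library and Non-injected SOD1 mutant replicate 3 as a miR control library. The labels were followed, and results that turn on these libraries are also given with the pair exchanged. Mouse Sod1, which the microRNA is not designed against, lay at 176 to 321 CPM, 211 to 323 CPM and 217 to 473 CPM in the AAV-miR SOD1, AAV-miR ctrl and Non-injected SOD1 mutant groups and does not check the labels. All 8 motoneuron markers examined were detected in every library, among them the neurofilament genes Nefm at 2184 to 7574 CPM and Nefh at 791 to 2955 CPM. In libraries pooled from many cells, fewer cells of a type and less RNA per cell cannot be told apart.

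The germline sequences below show how some segments that led libraries or had a small p differ from one another. Each is the 3′ end of the reference V exon (GENCODE M21 transcript, GRCm38, coding strand, 5′ to 3′), starting 60 bases before the codon, in capitals, of the conserved cysteine that opens the hypervariable loop at the junction with the joining segment. Ighv1-54 and Igkv15-103 are shown because they took most variable counts of Non-injected SOD1 mutant replicate 3, Ighv1-81, Ighv5-9-1 and Igkv6-15 because each led a pair of libraries, and Ighv1-82 because it led Non-injected SOD1 mutant replicate 5, where the similar Ighv1-81 came next. Ighv14-2 and Igkv13-85 are shown because they had the smallest p in a comparison between groups, and Igkv1-110 because it led libraries of different groups. Iglv1 and Iglv2 are shown because they are near-identical and lie on different sides of the constant gene Iglc2.
Ighv1-54: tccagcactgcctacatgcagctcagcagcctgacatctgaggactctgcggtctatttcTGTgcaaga
Ighv1-81: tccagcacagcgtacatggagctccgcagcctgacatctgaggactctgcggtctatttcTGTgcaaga
Ighv1-82: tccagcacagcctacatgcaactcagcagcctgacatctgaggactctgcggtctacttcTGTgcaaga
Ighv5-9-1: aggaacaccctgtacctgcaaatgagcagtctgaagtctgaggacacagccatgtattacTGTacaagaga
Ighv14-2: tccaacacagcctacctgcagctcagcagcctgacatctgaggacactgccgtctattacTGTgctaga
Igkv15-103: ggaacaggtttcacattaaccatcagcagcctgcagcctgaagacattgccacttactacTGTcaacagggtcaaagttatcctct
Igkv6-15: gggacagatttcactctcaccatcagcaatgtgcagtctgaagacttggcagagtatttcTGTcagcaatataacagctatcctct
Igkv1-110: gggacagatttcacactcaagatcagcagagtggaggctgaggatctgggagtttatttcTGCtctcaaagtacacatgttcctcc
Igkv13-85: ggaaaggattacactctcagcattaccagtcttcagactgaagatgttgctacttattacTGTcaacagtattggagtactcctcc
Iglv1: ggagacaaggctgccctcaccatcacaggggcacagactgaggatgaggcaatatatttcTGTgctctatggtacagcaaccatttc
Iglv2: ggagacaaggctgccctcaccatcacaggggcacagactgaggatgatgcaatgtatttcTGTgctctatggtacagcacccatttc
The heavy segments lie at chr12:115193675-115194134 (Ighv1-54, minus strand), chr12:115920279-115920712 (Ighv1-81, minus strand), chr12:115952538-115953005 (Ighv1-82, minus strand), chr12:113736111-113736630 (Ighv5-9-1, minus strand) and chr12:113994469-113994898 (Ighv14-2, minus strand). The kappa segments lie at chr6:68437440-68437925 (Igkv15-103, plus strand), chr6:70406469-70406992 (Igkv6-15, minus strand), chr6:68270485-68271267 (Igkv1-110, plus strand) and chr6:68930269-68930734 (Igkv13-85, minus strand), and the lambda segments at chr16:19085017-19085500 (Iglv1, minus strand) and chr16:19260401-19260859 (Iglv2, minus strand). Over the 63 bases that end with the capital codon, Ighv1-54 was 93.7% identical to Ighv1-81, 95.2% identical to Ighv1-82 and 66.7% identical to Ighv5-9-1. Iglv1 and Iglv2 were 96.8% identical, and Igkv15-103 and Igkv6-15 were 73.0% identical. The longest stretch that a member shared exactly with another segment of the annotation had a median of 87 bases over the 83 heavy and 86 bases over the 79 kappa segments, and reached 220 and 193 bases. It was 29 bases for Igkv15-103 and 63 bases for Ighv1-54, but 193 bases for Igkv13-85, shared with Igkv13-84, and 104 bases for Iglv1 and Iglv2. It was also 193 bases for Igkv5-43 (with Igkv5-45), 152 for Igkv6-25 (with Igkv6-17) and 142 for Igkv1-110 (with Igkv1-117). Reads that fit several places were kept apart in the deposited tables (42.3 to 56.8% of all entries), so the split between near-identical segments is uncertain.

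The heavy locus lies on chromosome 12, the kappa locus on chromosome 6 and the lambda locus on chromosome 16. Of 348 variable candidates, 97 had no count in any library. Among the 165 variable members, 28 reached 10 counts in 1 library only, and 2, both of them lambda segments, did so in all 13. In 87 of the 165, over 50% of all counts came from a single library. Ighv1, the largest heavy family, supplied 63.5% of heavy variable counts with 43 members. Igkv6, Igkv4 and Igkv1 supplied 19.9%, 17.2% and 14.9% of kappa variable counts. Of the 165 variable members, 8 are annotated as pseudogenes.

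The summed level of the 176 genes varied more than 10-fold between mice. It was 6922, 7487, 1538 and 4705 CPM in AAV-miR SOD1 replicates 1 to 4, with a median of 5814 CPM. In the AAV-miR ctrl group it was 8146, 3103, 2646, 926 and 1540 CPM, with a median of 2646 CPM. In the Non-injected SOD1 mutant group it was 3479, 658, 1967 and 4518 CPM, with a median of 2723 CPM. The 3 groups overlapped, and the highest single library was AAV-miR ctrl replicate 1, where immunoglobulin genes took 0.815% of all counts. With the 2 contradicted libraries exchanged, the AAV-miR ctrl median was 1540 CPM, and the Non-injected SOD1 mutant values were 3479, 3103, 1967 and 4518 CPM. The closeness of these 2 groups thus depends on the labels followed. Constant genes took most of this sum in every library: Igkc, the only kappa constant gene, alone stood at 181 to 3573 CPM.

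**Figure D1:**
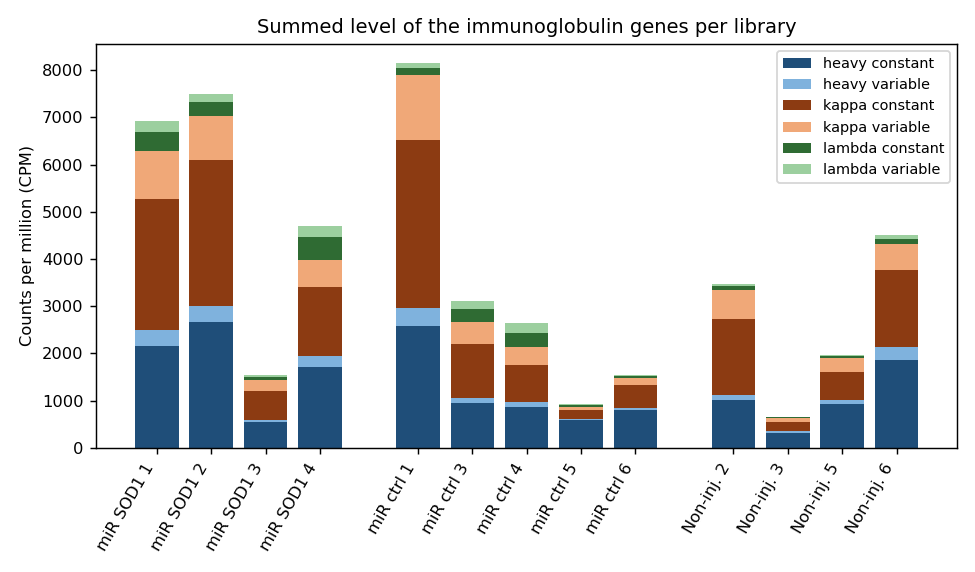
Summed level of the immunoglobulin genes in each library, in CPM, stacked by chain and by constant or variable part. AAV-miR ctrl replicate 1 is the highest at 8146 CPM and Non-injected SOD1 mutant replicate 3 the lowest at 658 CPM, and the 3 groups overlap.

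The leading heavy segment took 21.5 to 82.6% of heavy variable counts, and it mostly differed from mouse to mouse. In the AAV-miR SOD1 group the leading segment was Ighv5-9-1 in replicate 1 (32.8% of 7375 heavy variable counts), Ighv14-2 in replicate 2 (22.6% of 5836), Ighv9-3 in replicate 3 (21.5% of 940) and Ighv5-9-1 again in replicate 4 (24.5% of 3839). In the AAV-miR ctrl group it was Ighv1-81 in replicate 1 (25.8% of 8043), Ighv1-22 in replicate 3 (24.1% of 2574), Ighv1-81 in replicate 4 (40.7% of 1378), Ighv1-78 in replicate 5 (27.0% of 1242) and Ighv9-3 in replicate 6 (29.97% of 1712). In the Non-injected SOD1 mutant group it was Ighv10-1 in replicate 2 (36.2% of 2607), Ighv1-54 in replicate 3 (82.6% of 582), Ighv1-82 in replicate 5 (38.7% of 3454) and Ighv1-36 in replicate 6 (40.4% of 10132). Thus 10 segments led the 13 libraries, and 3 of them, Ighv5-9-1, Ighv1-81 and Ighv9-3, led more than 1. The exact 95% binomial intervals, which cover counting error only because amplified reads are not independent molecules, ran from 18.9 to 24.3% for the smallest of these shares and from 79.3 to 85.6% for the largest.

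The leading kappa segment took 21.6 to 84.8% of kappa variable counts and also mostly differed from mouse to mouse. The leaders in AAV-miR SOD1 replicates 1 to 4 were Igkv6-23 (26.3% of 22026 kappa variable counts), Igkv1-110 (26.2% of 16756), Igkv6-15 (33.3% of 5212) and Igkv14-111 (21.6% of 9338). In AAV-miR ctrl replicates 1, 3, 4, 5 and 6 they were Igkv6-15 (31.6% of 28813), Igkv8-30 (47.4% of 10293), Igkv8-28 (23.6% of 5098), Igkv8-21 (42.3% of 2461) and Igkv4-63 (27.1% of 4698). In Non-injected SOD1 mutant replicates 2, 3, 5 and 6 they were Igkv4-72 (30.03% of 13985), Igkv15-103 (84.8% of 1694), Igkv12-46 (37.7% of 11164) and Igkv1-110 (32.7% of 19751). Here 11 segments led the 13 libraries, and Igkv6-15 and Igkv1-110 led a pair of libraries each, in both cases from different groups. Counted per exon length, the leader stayed the same in 13 of 13 libraries for heavy and in 12 of 13 for kappa segments: in Non-injected SOD1 mutant replicate 6, Igkv4-90 (31.0% of counts) passed Igkv1-110.

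**Figure D2:**
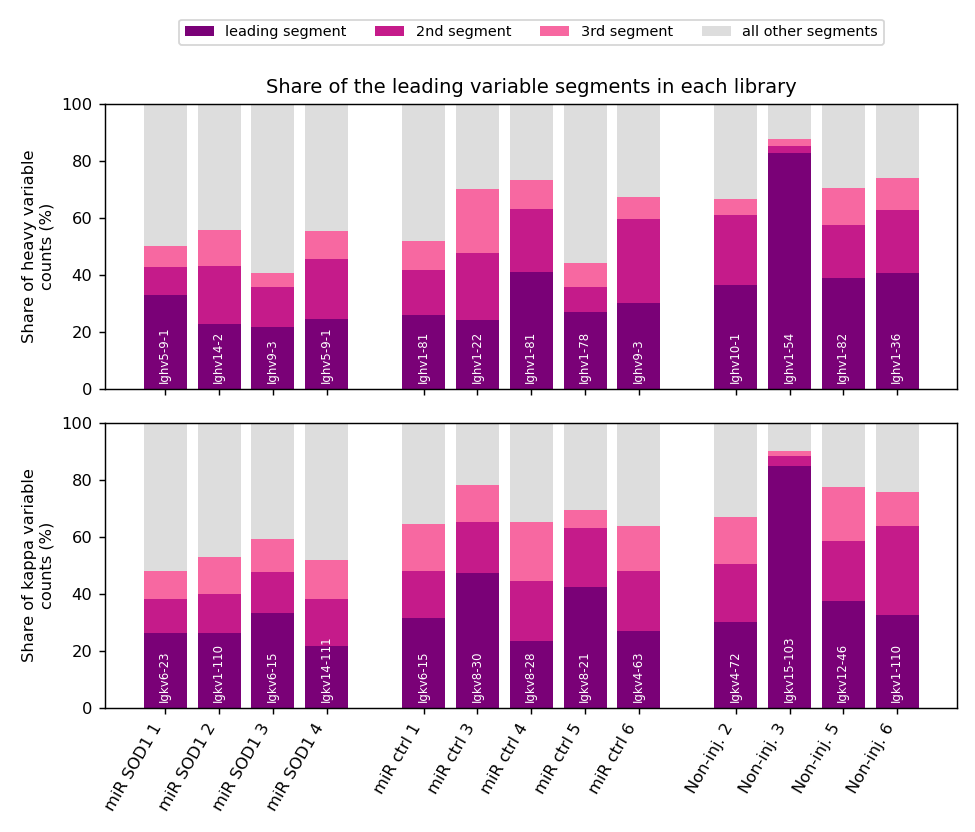
Share of heavy (upper) and kappa (lower) variable counts taken by the leading segment, named in the bar, by the 2nd and the 3rd segment and by all others, in each library. The leading share is 82.6% and 84.8% in Non-injected SOD1 mutant replicate 3 and lies between 21.5% and 47.4% in all other libraries.

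Non-injected SOD1 mutant replicate 3 stood apart: a single heavy and a single kappa segment held most of the variable counts of each chain. Ighv1-54 had 481 of 582 heavy counts there, and the next segment, Ighv1-19, had 15. Igkv15-103 had 1437 of 1694 kappa counts, and the next, Igkv5-48, had 63 (3.72%). The share of Igkv15-103 was 4.28% in AAV-miR SOD1 replicate 1 and 19.1% in Non-injected SOD1 mutant replicate 5, so the segment was not confined to this mouse. The same library had the lowest immunoglobulin sum (658 CPM) and the fewest variable counts of the 13, and its header contradicts its label.

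The effective number of segments, the reciprocal of the summed squared shares, states how many equally used segments would give the same concentration. For heavy segments it was 7.01, 7.81, 12.6 and 7.90 in AAV-miR SOD1 replicates 1 to 4, and 7.35, 5.75, 4.33, 10.1 and 5.33 in AAV-miR ctrl replicates 1, 3, 4, 5 and 6. In the Non-injected SOD1 mutant group it was 4.99, 1.46, 4.81 and 4.20. All 4 AAV-miR SOD1 libraries thus lay above all 4 Non-injected SOD1 mutant libraries, and the AAV-miR ctrl libraries overlapped both groups. For kappa segments the values were 8.77, 8.24, 6.16 and 8.34 in the AAV-miR SOD1 group, 5.79, 3.54, 5.86, 4.33 and 6.14 in the AAV-miR ctrl group and 5.81, 1.39, 4.37 and 4.31 in the Non-injected SOD1 mutant group. For kappa the AAV-miR SOD1 libraries lay above every other library, by a narrow margin in replicate 3 (6.16) against AAV-miR ctrl replicate 6 (6.14).

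The 3 leading segments together gave the same order. They held 40.6 to 55.5% of heavy counts in the AAV-miR SOD1 group, 43.9 to 73.3% in the AAV-miR ctrl group and 66.5 to 87.5% in the Non-injected SOD1 mutant group. For kappa they held 48.1 to 59.4%, 63.9 to 78.3% and 67.0 to 90.02%. The median share of the leading heavy segment was 23.6%, 27.0% and 39.6% in the 3 groups, and that of the leading kappa segment 26.3%, 31.6% and 35.2%. Libraries numbered 1 to 4 leave 2 of the Non-injected SOD1 mutant group, whose medians then came to 59.4% for heavy and 57.4% for kappa. With the 2 contradicted libraries exchanged, the effective numbers of the AAV-miR SOD1 and Non-injected SOD1 mutant groups still did not overlap, but the leading heavy shares did, because AAV-miR ctrl replicate 3 had 24.1%. These are descriptions of scores over the chosen genes and carry no p-value.

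The number of segments seen depends on how many counts a library has, so it was also computed as the number expected in a fixed draw. With at least 1 count, 62 to 72 heavy segments were seen in the AAV-miR SOD1 group, 47 to 66 in the AAV-miR ctrl group and 27 to 61 in the Non-injected SOD1 mutant group. In a draw of 582 heavy counts, the size of the smallest library, 42.1 to 56.3, 36.2 to 49.5 and 20.9 to 47.8 segments were expected. In a draw of 1694 kappa counts the ranges were 48.2 to 60.6, 38.8 to 49.8 and 26.8 to 46.1. At equal counts the heavy ranges of the 3 groups overlapped, whereas the kappa range of the AAV-miR SOD1 group lay above that of the Non-injected SOD1 mutant group. Non-injected SOD1 mutant replicate 6, not replicate 3, gave the lowest expected numbers, 20.9 and 26.8.

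Pairs of mice mostly shared little of their segment use, inside or across groups. The share of heavy variable counts that 2 libraries had in common had a median of 15.95% over the 22 pairs within groups and 16.1% over the 56 pairs between groups. For kappa the medians were 14.4% and 13.7%. The highest value of any pair, 48.1% for heavy segments, was a pair between groups. Pairs share libraries and were not tested.

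**Figure D3:**
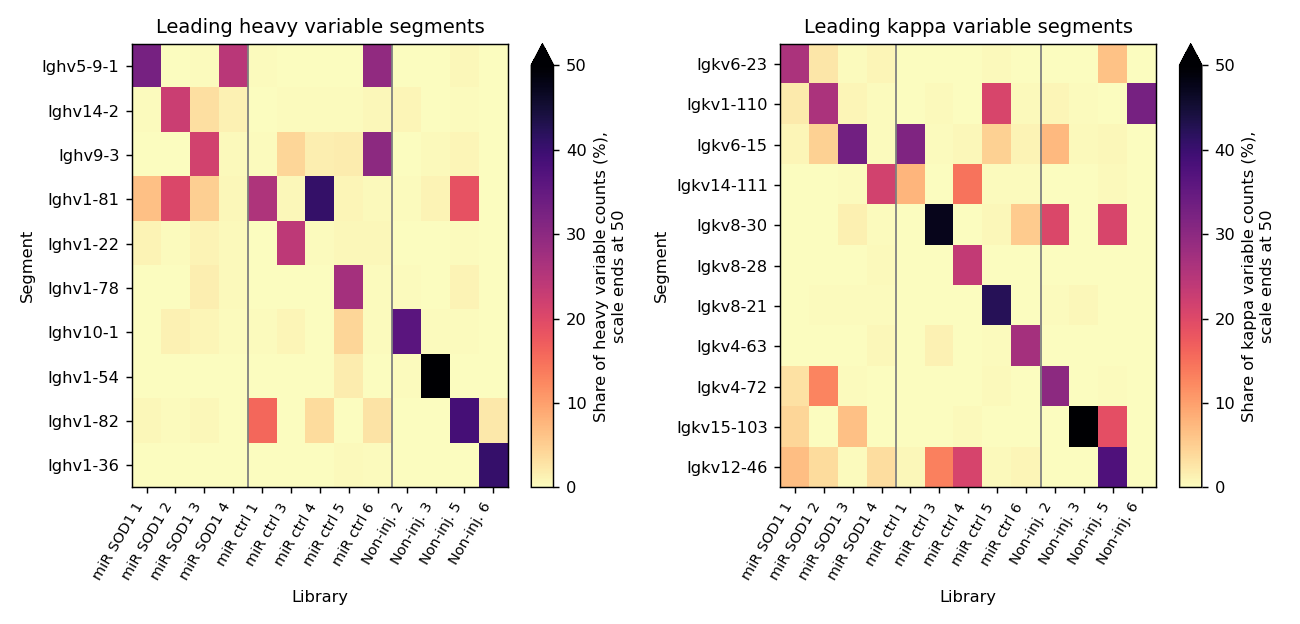
Share of heavy (left) and kappa (right) variable counts held by each segment that led at least 1 library, across all 13 libraries, with groups separated by lines and colour ending at 50%. Most segments are dark in 1 or 2 libraries only, and several also appear outside the group they led in, such as Ighv5-9-1 with 29.4% of heavy counts in AAV-miR ctrl replicate 6.

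Among the heavy constant genes, Ighm and Igha carried most RNA in all but 1 mouse, and the IgG genes differed from mouse to mouse. Per kilobase of exon, Igha, the mucosal class, had 577, 685, 54.5 and 345 CPM in the AAV-miR SOD1 group, 711, 192, 169, 32.8 and 133 in the AAV-miR ctrl group and 140, 47.0, 191 and 340 in the Non-injected SOD1 mutant group. Ighm, the first class made, had 227, 233, 214 and 338 CPM per kb, then 348, 163, 151, 259 and 191, then 176, 104, 220 and 104. Igha thus spanned a far wider range than Ighm, and in the AAV-miR ctrl replicate 5 library Ighm made up 86.6% of heavy constant CPM per kb. Ighd, co-expressed with Ighm on naive B cells, was low throughout, at 0.780 to 17.7 CPM per kb.

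Most counts of Ighg2c, and most of Ighg1, came from a single mouse. Ighg2c had 22766 counts in Non-injected SOD1 mutant replicate 6, where it formed 49.5% of heavy constant CPM per kb, 3991 in AAV-miR SOD1 replicate 2, 1759 in AAV-miR ctrl replicate 4 and 1676 in AAV-miR SOD1 replicate 1. The remaining 9 libraries had 2 to 843. Ighg1 had 4099 counts in Non-injected SOD1 mutant replicate 2, 1616 in AAV-miR SOD1 replicate 4 and 837 in AAV-miR SOD1 replicate 2, and 0 to 25 in the other 10 libraries. Ighg2b was spread over more mice, with 119.9 CPM in Non-injected SOD1 mutant replicate 2, 116.5 in AAV-miR ctrl replicate 3, 116.1 in Non-injected SOD1 mutant replicate 6 and 101.6 in AAV-miR SOD1 replicate 1. Every group thus held mice with high and mice with low counts of each of these 3 genes, except that no AAV-miR ctrl library had more than 25 counts of Ighg1. Ighe, the allergy-associated class, had 24 counts in AAV-miR ctrl replicate 6, 2 in AAV-miR SOD1 replicate 4 and 0 elsewhere, which allows up to 3 counts in each of those libraries. Ighg3 and the lambda gene Iglc4 stayed under the limit of 10 counts and are not members.

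**Figure D4:**
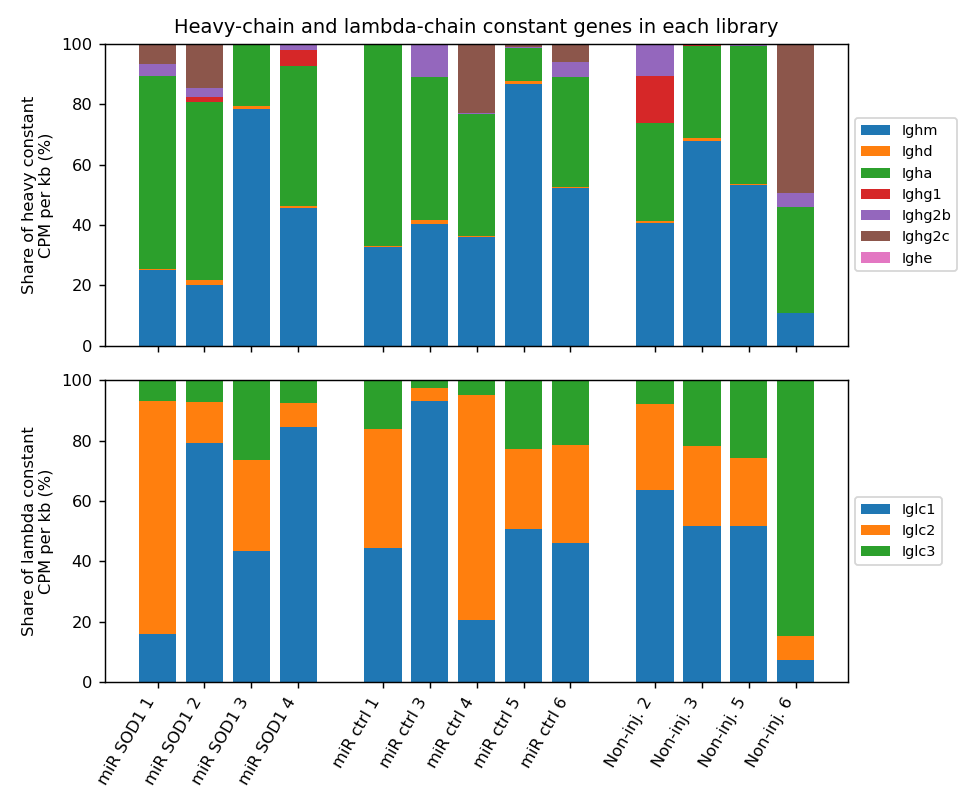
Share of each heavy (upper) and lambda (lower) constant gene in the CPM per kilobase of its chain, in each library. Ighm and Igha fill most of each upper bar except in Non-injected SOD1 mutant replicate 6, where Ighg2c reaches 49.5%, and the lambda bars change between Iglc1, Iglc2 and Iglc3 from mouse to mouse.

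Light chains were mostly kappa. Lambda constant genes made up 9.71 to 27.2% of light-chain constant CPM per kb in the AAV-miR SOD1 group, 4.30 to 25.9% in the AAV-miR ctrl group and 5.99 to 9.06% in the Non-injected SOD1 mutant group. Igkc stood above every other constant gene in all 13 libraries, at 341 to 6717 CPM per kb. Mouse lambda segments can join only with constant genes that lie downstream of them, and in the annotation Iglv2 and Iglv3 come first, then Iglc2 and Iglc4, then Iglv1, then Iglc3 and Iglc1. Iglv1 led the lambda variable counts in 11 libraries, Iglv2 in AAV-miR SOD1 replicate 1 (68.8% of 5214) and Iglv3 in AAV-miR ctrl replicate 4 (40.9% of 3066).

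In the libraries richest in lambda counts, the leading constant gene was one that lies downstream of the leading segment. Every constant gene lies downstream of Iglv2 and Iglv3, so this could fail only where Iglv1 led. AAV-miR SOD1 replicate 1 had 3585 counts of Iglv2 and 6859 of Iglc2, and AAV-miR ctrl replicate 4 had 1176 of Iglv2, 1255 of Iglv3 and 3308 of Iglc2. These were the only 2 libraries in which Iglc2 passed 50% of lambda constant CPM per kb, at 77.5% and 74.7%. AAV-miR SOD1 replicate 4 and AAV-miR ctrl replicate 3 had 3672 and 3411 counts of Iglv1 with 6500 and 5967 of Iglc1. Non-injected SOD1 mutant replicate 6 had a similar 3511 counts of Iglv1 but 2971 of Iglc3 and only 252 of Iglc1, and its joining segment Iglj3 had 235 counts where the other libraries had 6 to 41. AAV-miR ctrl replicate 1, with fewer lambda variable counts (2023), was less clear. Iglv1 led there with 1209 counts beside 660 of Iglv3, and Iglc2 had 1541 counts against 1286 of Iglc1. Per kb, Iglc1 was ahead in that library (44.4% against 39.5%). The near-identical Iglv1 and Iglv2 can share reads, so low counts of either beside the other are uncertain.

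Tests between groups were read from an edgeR quasi-likelihood fit across 17403 genes, with p adjusted over all of them by the Benjamini-Hochberg method. A filter on low counts left 96 of the 176 members tested (86 variable segments and 10 constant genes), and 80 were too low or too rare. A segment often passed that filter only through the libraries where it was high, so the counts of members below are descriptions and support nothing. Members varied far more between mice than other genes: the median biological coefficient of variation was 1.33 for the 96 members and 0.386 for all genes tested.

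AAV-miR SOD1 against AAV-miR ctrl gave no member past the adjusted threshold of 0.05, as for all genes (0% called, smallest adjusted p = 0.256 by edgeR). At an unadjusted p under 0.05, 29 of 96 members (30.2%) were higher and 2 lower (2.08%), beside 5.99% and 8.54% of all genes. DESeq2 called 6 members higher and 0 lower, among the 65 to which it gave an adjusted p, beside 0.484% and 0.387% of genes. The median log2 fold change was 0.98 over the 96 members and -0.04 over all genes. Read on TMM-scaled log2 CPM with a prior count of 2, the groups did not overlap for 2 members, both higher (1.27% of all genes were higher without overlap and 2.46% lower): Ighv14-2, and Igkv14-100, named after its values were seen. In unscaled CPM, Igkv4-50, also named after its values were seen, made it 3 (0.908% of all genes higher and 1.59% lower).

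The 5 members with the smallest p in that comparison were all variable segments, each high in part of the AAV-miR SOD1 group. Ighv14-2 had 0.697, 74.4, 1.36 and 3.16 CPM there, 0.0474, 0.353, 0.216, 0.107 and 0.371 CPM in the AAV-miR ctrl group and 0.909, 0, 0.347 and 0.279 CPM in the Non-injected SOD1 mutant group. A single mouse, replicate 2, supplied its height. Its log2 fold change was 6.23 ± 1.33 (SE), and 2.97 without that mouse, with an edgeR adjusted p of 0.256, which ran from 0.0638 to 0.894 over the alternative settings. Igkv13-85 had 1.02, 32.3, 33.3 and 0.182 CPM, against 0.758, 0.177, 0.0720, 0.214 and 0.404, so 2 mice carried it and the groups overlapped (5.61 ± 1.24, edgeR adjusted p = 0.256, 0.0193 by DESeq2). Igkv6-23 had 269, 23.8, 0.571 and 4.99 CPM, against 0.0674 to 0.853 (7.25 ± 1.76, and 4.20 without AAV-miR SOD1 replicate 1, edgeR adjusted p = 0.256, 0.00300 by DESeq2).

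The other 2 followed the same form. Igkv5-43 had 9.80, 20.7, 0.264 and 0.487 CPM in AAV-miR SOD1 replicates 1 to 4, against 0.0268 to 0.438 in the AAV-miR ctrl group (4.84 ± 1.15 by log2, edgeR adjusted p = 0.256). Igkv2-109 was instead high in replicates 3 and 4, with 0.232, 0.620, 6.64 and 11.3 CPM against 0.0268 to 0.288 (5.27 ± 1.36 by log2, edgeR adjusted p = 0.256). DESeq2 called both, with adjusted p of 0.00300 and 0.00542. Igkv5-43 shares a run of 193 bases with Igkv5-45, so the split of counts between them is uncertain. Among the constant genes, Ighg1 alone had an unadjusted p under 0.05 (log2 fold change 7.28 ± 2.40, edgeR adjusted p = 0.270), while Igha (0.68 ± 0.76, adjusted p = 0.716), Igkc (0.62 ± 0.76, adjusted p = 0.740) and Ighm (0.18 ± 0.29, adjusted p = 0.819) differed by less than their standard errors.

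AAV-miR SOD1 against the Non-injected SOD1 mutant group also gave no member and no gene past the adjusted edgeR threshold (0% called, smallest adjusted p = 0.140). At an unadjusted p under 0.05, 31 of 96 members (32.3%) were higher and 2 lower (2.08%), beside 9.36% and 11.5% of all genes. DESeq2 called 12 members higher and 1, Igkv4-59, lower, beside 3.12% and 2.52% of genes. The groups did not overlap for 10 members, all higher, beside 5.9% of all genes higher and 5.81% lower, and in unscaled CPM for 12, beside 5.29% and 3.55%. This comparison shares the AAV-miR SOD1 libraries with the one above, so both rest in part on the same mice.

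Of the 5 members with the smallest p, Igkv4-57 alone had groups that did not overlap: 4.41, 1.47, 0.132 and 0.182 CPM against 0, 0, 0.0267 and 0.0559. Replicates 3 and 4 had only 3 counts each, the floor of what can be read, so the gap there is not detectable at this depth (log2 fold change 5.60 ± 1.42, edgeR adjusted p = 0.140, 0.00824 by DESeq2). Igkv13-85, with 0.260, 0, 0.0267 and 0 CPM in the Non-injected SOD1 mutant group, had a log2 fold change of 7.80 ± 1.58 (edgeR adjusted p = 0.140, 0.00127 by DESeq2). Igkv4-57-1 rested on AAV-miR SOD1 replicate 4, with 0.0465, 0.958, 0.571 and 39.6 CPM against 0, 0.114, 0 and 0. Igkv4-80 rested on replicate 1, with 78.3, 1.35, 0 and 0.730 CPM against 0, 0, 0.241 and 0.0279. Their log2 fold changes were 8.76 ± 2.13 and 7.83 ± 2.01, and 4.25 and 3.04 without those mice. Ighv14-2 had a log2 fold change of 5.41 ± 1.38, and of 2.17 without AAV-miR SOD1 replicate 2 (edgeR adjusted p = 0.140). Among constant genes, Ighd (1.97 ± 0.61), Iglc1 (2.86 ± 1.08), Iglc2 (2.76 ± 1.06) and Ighm (0.72 ± 0.30) had an unadjusted p under 0.05 and edgeR adjusted p of 0.140, 0.166, 0.172 and 0.202, and all overlapped between groups. DESeq2 called Ighd alone of the constant genes (adjusted p = 0.0292).

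In AAV-miR ctrl against the Non-injected SOD1 mutant group, the comparison of control vector with no injection, no member or gene passed the adjusted edgeR threshold (0% called, smallest adjusted p = 1.00), and 14 of 96 members were higher and 14 lower (14.6% each) at an unadjusted p under 0.05, beside 1.38% and 2.24% of all genes. DESeq2 called 0 members, beside 0.0189% of genes higher and 0.00472% lower. The groups did not overlap for 1 member lower, Igkv3-4, on either scale (0.517% of all genes on the log2 scale, 0.356% in unscaled CPM). Ighv1-22 was higher without overlap on the TMM-scaled log2 scale (0.299% of all genes), but in unscaled CPM AAV-miR ctrl replicate 4 (0.216) lay below Non-injected SOD1 mutant replicate 5 (0.241). Neither group received the microRNA against SOD1. The counts moved with single mice: 8 members were higher without AAV-miR ctrl replicate 1 and 30 without Non-injected SOD1 mutant replicate 2, and 5 were lower without AAV-miR ctrl replicate 6 and 8 without replicate 4 or replicate 5. With the 2 contradicted libraries exchanged, 6 were higher and 22 lower. The number of all genes at this threshold, in either direction, moved too. It ran from 516 to 1008 without single libraries and from 465 to 1601 over all alternative settings. The member counts therefore show no movement particular to members.

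Most of its 5 members with the smallest p again stood high in 1 or 2 mice. Igkv6-25 had 80.7 CPM in AAV-miR ctrl replicate 3 and 0.0674 to 0.948 CPM in the other 4 libraries of that group, against 0.0279 to 0.241 CPM. Its log2 fold change was 7.17 ± 1.99, came to 2.02 without that library and to -5.69 when the 2 contradicted libraries were exchanged. Igkv15-103 had 0.0866, 81.9, 56.9 and 0.196 CPM in the Non-injected SOD1 mutant group against 0.0268 to 1.44 CPM, with a log2 fold change of -6.37 ± 1.85 that became 0.30 under the same exchange. Igkv3-4 was lower without overlap, with 0, 0, 0.576, 0.402 and 0.0337 CPM against 31.0, 0.798, 15.6 and 0.755. Igkv4-72 had 182 CPM in Non-injected SOD1 mutant replicate 2 and at most 0.882 in every other library of both groups, and Iglv3 had 31.3 and 90.3 CPM in AAV-miR ctrl replicates 1 and 4 against 1.20 to 3.98. Their log2 fold changes were -7.78 ± 2.33, which came to -0.55 without Non-injected SOD1 mutant replicate 2, and 3.57 ± 1.09. Of the constant genes, Ighg1 (-7.68 ± 2.43) and Iglc2 (2.18 ± 1.01) had an unadjusted p under 0.05. All of these had an edgeR adjusted p of 1.00.

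**Figure D5:**
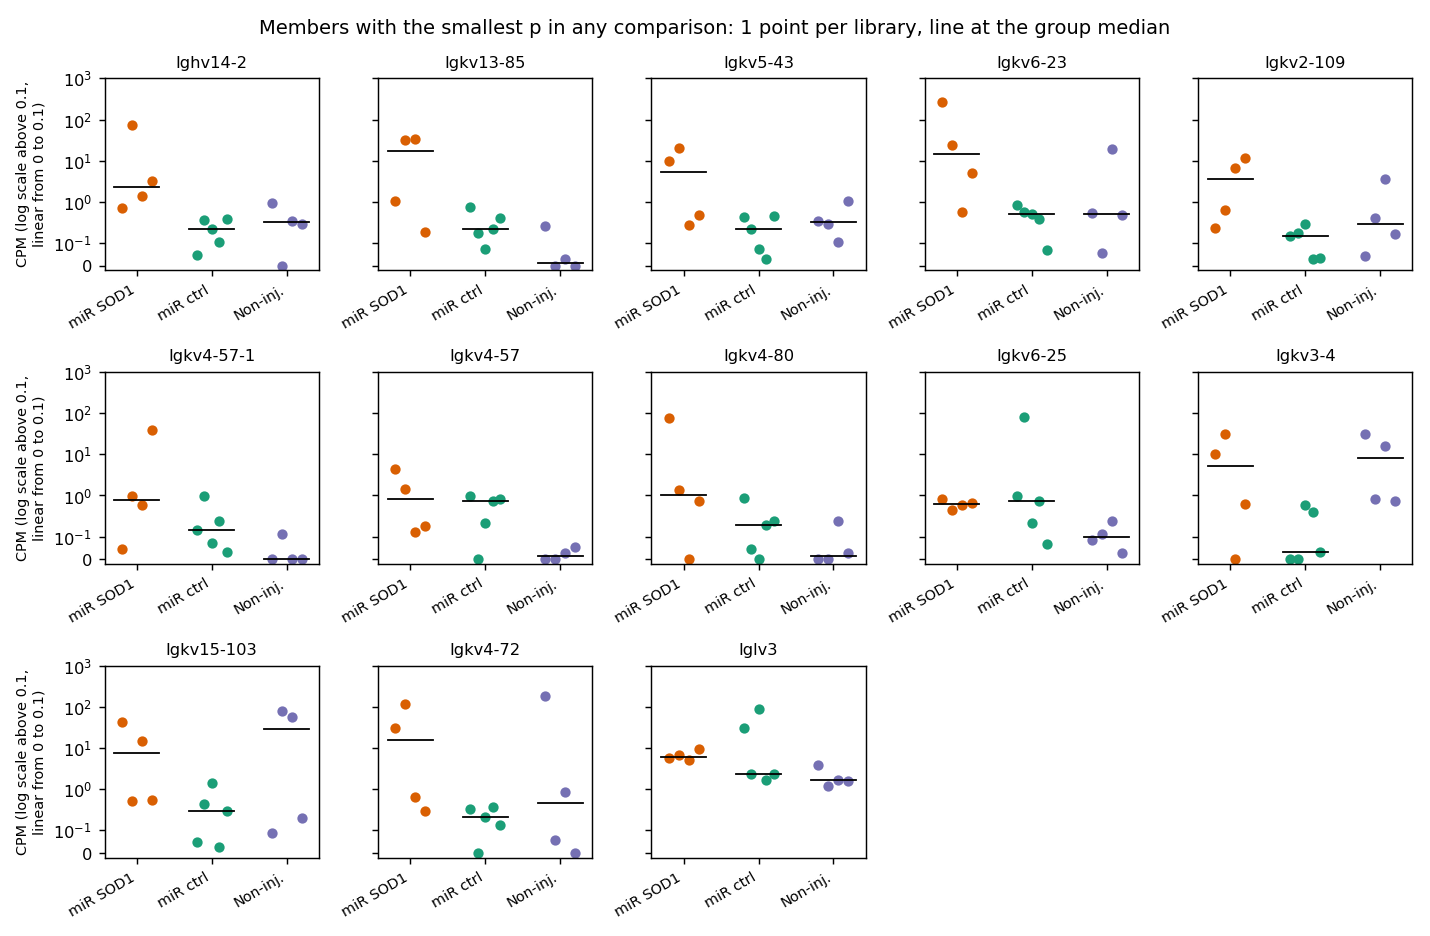
CPM of the 13 members that had 1 of the 5 smallest p in any comparison, with 1 point per library and a line at each group median, on an axis that is logarithmic above 0.1 and linear below. In most panels 1 or 2 points stand far above the rest of their own group, such as Ighv14-2 at 74.4 CPM in an AAV-miR SOD1 library.

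The following genes, which B-lineage cells use together with immunoglobulin chains, were detected in every library. Jchain, which links IgA and IgM into polymers and is made by antibody-secreting cells, had 974, 1157, 179 and 492 CPM in the AAV-miR SOD1 group, 958, 410, 418, 39.4 and 175 in the AAV-miR ctrl group and 501, 59.1, 193 and 451 in the Non-injected SOD1 mutant group. Cd79a, the signalling partner of the membrane receptor, had 67.6 to 143, 39.6 to 111 and 14.5 to 71.5 CPM in the 3 groups, and its partner Cd79b 67.5 to 180, 43.3 to 127 and 19.5 to 76.4 CPM. Vpreb1 and Igll1, which form the surrogate light chain of B-cell precursors, had 3.49 to 35.0 and 5.73 to 72.3 CPM over the 13 libraries. Mzb1, a chaperone of antibody assembly, had 7.07 to 55.7 CPM and Pou2af1, a coactivator of immunoglobulin promoters, 6.43 to 58.1 CPM. Non-injected SOD1 mutant replicate 6 combined low Cd79a (14.5 CPM) with 451 CPM of Jchain. AAV-miR ctrl replicate 5 combined 61.6 CPM of Cd79a with the lowest Jchain, 39.4 CPM. Other genes of antibody-secreting cells did not all follow Jchain. In the same order of libraries, Mzb1 had 11.96 and 14.46 CPM, Xbp1 266 and 270 CPM and Creld2 39.7 and 69.6 CPM. Tnfrsf17 (1.06 and 0 CPM), Derl3 (2.21 and 1.34 CPM) and Eaf2 (2.91 and 1.23 CPM) went with Jchain.

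The lists of partner genes, written with results of these data known, gave the following counts. In AAV-miR SOD1 against AAV-miR ctrl, 1 of 12 receptor signalling genes, 0 of 11 surrogate light chain and recombination genes, 2 of 12 transcription factors, 2 of 10 mature B-cell surface genes, 0 of 11 plasma cell genes and 0 of 4 class switching genes were higher at an unadjusted p under 0.05, beside 5.99% of all genes. Against the Non-injected SOD1 mutant group the counts were 7 of 12, 2 of 11, 8 of 12, 5 of 10, 1 of 11 and 1 of 4, beside 9.36% of all genes, and in AAV-miR ctrl against that group 0 in each of these lists, beside 1.38%. In both comparisons of the AAV-miR SOD1 group 1 receptor signalling gene was lower, Cd81, which many cell types express (log2 fold change -0.59 ± 0.24 and -0.65 ± 0.25), beside 8.54% and 11.5% of all genes. Cd79a and Cd79b were among the 7, at 1.23 ± 0.49 and 1.24 ± 0.47. None of these genes passed the adjusted edgeR threshold in any comparison (smallest adjusted p = 0.146).

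Markers of other cells also stood at unequal levels in the groups. All 9 erythroid genes tested, haemoglobin genes among them, were higher at an unadjusted p under 0.05 in AAV-miR SOD1 against each other group, and none at an adjusted p. Their summed level was 20405 to 54233 CPM in the AAV-miR SOD1 group, 3992 to 31204 in the AAV-miR ctrl group and 5890 to 19736 in the Non-injected SOD1 mutant group. The 10 neutrophil granule genes summed to 27585 to 85088, 10870 to 73876 and 14189 to 22645 CPM, and 3 and 7 of them were higher, at the same threshold, in AAV-miR SOD1 against AAV-miR ctrl and against the Non-injected SOD1 mutant group. Of 8 motoneuron genes, 5 and 8 were lower there, with sums of 3460 to 7244, 5195 to 11829 and 5065 to 12851 CPM. The 9 T-cell genes summed to 30.7 to 73.1, 13.7 to 33.4 and 9.18 to 23.4 CPM, with 5 and 4 of them higher. Of 8 microglia and macrophage genes 1 and 4 were higher, and of 6 astrocyte genes 1 was lower in each. Of all genes, 5.99% were higher and 8.54% lower at the same threshold in AAV-miR SOD1 against AAV-miR ctrl. Against the Non-injected SOD1 mutant group these shares were 9.36% and 11.5%. A count of 1 gene in lists this short cannot be told apart from such shares, and no list was tested against them. AAV-miR ctrl against the Non-injected SOD1 mutant group had 1 T-cell and 1 microglia and macrophage gene higher, beside 1.38% of all genes. No gene of the erythroid, neutrophil, motoneuron or astrocyte lists passed this threshold there. No gene of these lists was at 0 in all libraries. The part of these cells in the immunoglobulin levels and in the segment shares was not tested.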

How the data were processed

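RNA was sequenced from 13 pools of laser-captured motoneurons, 1 per mouse. Each deposited table lists 48709 genes with whole-number, unscaled read counts, followed by 5 summary entries that were left out of library totals. The submitters' processing notes name cutadapt 1.8, STAR 2.5.2b, HTSeq 0.6.1 and the GRCm38 build, without roles. The annotation release and the strand setting are not given in the sources used here, so reads of overlapping or antisense genes cannot be told apart. Per the labels' protocols, cDNA was amplified from low input, and no molecular identifiers are named. Groups came from the titles. Gene symbols, coordinates and exon lengths came from GENCODE M21, which named 48349 of the gene identifiers, and CPM used the total of gene counts in each library. The immunoglobulin genes and all marker lists were chosen with earlier results of these data known. Genes named in the text were all constant members, the leading variable segment of each chain in each library, the 5 tested members with the smallest p in each comparison, and genes of the marker lists. One marker gene is not reported here. The promoter table used here held no member, so no promoter is shown.

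Differential tests used edgeR 4.0.16 in R 4.3.3 (filterByExpr with a minimum count of 10 and a minimum total of 15, TMM scaling, quasi-likelihood F tests on all 13 libraries, 10 residual degrees of freedom), with DESeq2 1.42.0 as an alternative. Standard errors are the log2 fold change divided by the root of F. Shares carry exact Clopper-Pearson 95% intervals. On simulated counts of the same 17403 genes with 200 changed, edgeR recovered 75.5% for AAV-miR SOD1 against AAV-miR ctrl (61.1% of 4-fold and 87.3% of 16-fold changes, 8 false calls) and 72.0% against the Non-injected SOD1 mutant group (6 false calls). The changed genes were drawn from all genes tested, with a median biological coefficient of variation of 0.386 against 1.33 for members. Recovery for immunoglobulin members was therefore not measured. Alternatives were another scaling, no filter, the replicate number as a block, 2 groups fitted alone, the 2 contradicted libraries exchanged, libraries numbered 1 to 4, other count limits for membership, and leaving out each library. P-values measure the spread between these mice. No pair of libraries within a group agreed within sampling noise (smallest chi-square of 44.2 per degree of freedom over 22 pairs).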

Additional observations from a re-analysis of the deposited data

Results flagged for a closer look

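In 110 groups of values examined, 34 had a highest library set apart from the rest of its group by a gap that Dixon's 95% limit marks as unusual. Chance alone marks about 1 in 20 groups of normally distributed values. Many of these values were chosen for a small p or a high count in a single library, and CPM values are skewed. The number marked therefore cannot be read against that share. None was set apart at the lowest value. No cause was tested.

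Clonal skew and chain use gave 4 of these values. Non-injected SOD1 mutant replicate 3 had leading shares of 82.6% for heavy and 84.8% for kappa segments, where the next library of its group had 40.4% and 37.7%. AAV-miR SOD1 replicate 3 had the most even heavy use, with an effective number of 12.6 and the next at 7.90. The lambda share of light-chain constant CPM per kb was 27.2% in AAV-miR SOD1 replicate 4, with the next at 11.4%.

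Single mice stood out for constant genes. AAV-miR ctrl replicate 1 had 1896 CPM of Igha (next 512) and 3573 CPM of Igkc (next 1143). Class-switched genes were set apart in Non-injected SOD1 mutant replicate 2 (Ighg1, 177.4 CPM), Non-injected SOD1 mutant replicate 6 (Ighg2c, 636 CPM), AAV-miR ctrl replicate 4 (Ighg2c, 127 CPM) and AAV-miR ctrl replicate 6 (Ighg1, 0.842 CPM, and Ighe, 0.809 CPM). Ighe at 0.122 CPM in AAV-miR SOD1 replicate 4 rests on 2 counts. Ighm was highest in AAV-miR SOD1 replicate 4 at 638 CPM. Among lambda constant genes, Iglc1 had 264 CPM in AAV-miR ctrl replicate 3, Iglc2 had 319 CPM in AAV-miR SOD1 replicate 1 and 238 CPM in AAV-miR ctrl replicate 4, and Iglc3 had 83.0 CPM in Non-injected SOD1 mutant replicate 6.

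Among partner genes, AAV-miR ctrl replicate 1 had the highest Cd79b (127 CPM), Igll1 (65.9 CPM), Vpreb1 (35.0 CPM) and Pou2af1 (58.1 CPM) of its group.

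The remaining values are variable segments with the smallest p. In the AAV-miR SOD1 group they are Ighv14-2 in replicate 2 (74.4 CPM), Igkv4-57-1 in replicate 4 (39.6 CPM), and Igkv4-80 and Igkv6-23 in replicate 1 (78.3 and 269 CPM). In the AAV-miR ctrl group they are Igkv6-25 and Igkv4-57-1 in replicate 3 (80.7 and 0.972 CPM) and Igkv4-80 in replicate 1 (0.853 CPM). In the Non-injected SOD1 mutant group they are Igkv4-72 and Igkv13-85 in replicate 2 (182 and 0.260 CPM), Igkv2-109, Igkv6-23 and Igkv4-80 in replicate 5 (3.61, 18.9 and 0.241 CPM), and Igkv4-57-1 in replicate 3 (0.114 CPM, which rests on 2 counts).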

How the results depend on the processing

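No gene passed the adjusted edgeR threshold in any comparison under another scaling, no filter on low counts, the replicate block, 2 groups fitted alone, the exchange of the 2 contradicted libraries, libraries numbered 1 to 4, or without any single library (0 to 0), while 2529, 3635 and 629 genes had an unadjusted p under 0.05. DESeq2 called 144 genes for AAV-miR SOD1 against AAV-miR ctrl, 933 for AAV-miR SOD1 against Non-injected SOD1 mutant and 5 for AAV-miR ctrl against Non-injected SOD1 mutant, and the cause was not tested. Same-numbered libraries had correlations of -0.29 to 0.31 (8 pairs, median 0.05), against -0.51 to 0.50 for the others (48 pairs, median -0.02). So few pairs cannot exclude that replicate numbers pair the mice. All-gene numbers in the rest of this comparison of settings pool both directions. With the replicate block, 12, 14 and 4 of 96 members were higher at an unadjusted p under 0.05 in the 3 comparisons. There 0, 0 and 5 were lower, beside 1535, 1441 and 465 of 17403 genes. Without a filter, members at that threshold numbered 48, 62 and 36 higher and 15, 7 and 23 lower, beside 3342, 4469 and 1601 genes. Leaving out each library gave 25 to 38, 27 to 45 and 8 to 30 members higher and 1 to 6, 1 to 4 and 5 to 19 lower. The genes beside them numbered 1192 to 3986, 2431 to 4146 and 516 to 1008. Without the filter more genes and members were tested, and leaving out a library can change the number, so these counts are not shares. Exchanging the contradicted libraries reversed Igkv6-25 (-5.69) and Igkv15-103 (0.30) in AAV-miR ctrl against Non-injected SOD1 mutant. A count limit of 3 or 30 gave 229 or 134 members. Counts per exon length and leaving out pseudogenes were alternatives chosen after seeing the data, as were counting members under each setting and reading overlap in unscaled CPM. Variable totals of 582 heavy and 1694 kappa counts limit the shares of Non-injected SOD1 mutant replicate 3.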
